A study of Mus musculus with 80 samples.

Results

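The 9 genes described here encode small surface proteins of the Ly6 family. They were taken as a list of named genes, Ly6a, Ly6c1, Ly6c2, Ly6d, Ly6e and Ly6f on mouse chromosome 15 and Ly6g6c, Ly6g6d and Ly6g6e on chromosome 17, out of 21627 protein-coding genes. The genes were chosen by name with their H3K27me3 coverage in these same peak lists known, so their values are given as a description and were not tested. H3K27me3, a repressive histone mark, was mapped by CUT&RUN in fibroblasts that had been purified with magnetic beads from mouse myometrium and endometrium. In CUT&RUN an antibody brings a nuclease to the marked chromatin and the released DNA is sequenced.

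In the Kdm6b set, floxed Kdm6b (Kdm6b f/f) was deleted with Pgr-Cre, active where the progesterone receptor gene is on, or, in other females, with Pdgfra-Cre, active in fibroblasts and related mesenchymal cells. These conditional knockouts are called cKO, and Kdm6b f/f females without the deletion are called control, so both carry the floxed alleles. All females of this set were mated with B6 males. The Pgr-Cre pairs of cKO and control came from tissue between implantation sites (IIS) at GD5.5, GD8.5 or GD14.5. The other Pgr-Cre pairs came from implantation sites (IS) at GD14.5 or GD18.5, where GD is the gestation day. The Pdgfra-Cre pair came from IS at GD14.5. A second set came from B6CBAF1/J females, whose labels name neither a floxed Kdm6b allele nor Cre: uterus at GD0.5, IIS at GD5.5, uterus of the same day when the male had been vasectomized (GD5.5), and uterus of females that were not pregnant and had received progesterone over 3 days. The labels name 80 samples, and 48 of them enter 16 peak lists, 1 per group from 3 pooled samples. The age of the animals is not given in the labels.

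Proteins of the Ly6 family share a compact fold of loops held together by disulfide bonds, and most are tied to the outer membrane by a lipid anchor. Many serve as markers of blood, endothelial and progenitor cells, and the genes lie in clusters that arose by duplication. H3K27me3 is laid down by the Polycomb repressive complex and removed by demethylases such as the protein encoded by Kdm6b. Genes inside broad stretches of this mark are usually silent.

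The unit used throughout is coverage: how many percent of the gene, extended by 2 kb at each end, lay inside H3K27me3 peaks. Differences are in points of coverage, cKO minus control. In the Kdm6b set the 12 lists had 221350 to 287629 peaks over 609 to 740 Mb, and the 4 B6CBAF1/J lists 131900 to 167542 peaks over 681 to 704 Mb. The number of reads behind a list is unknown. The peaks over the 9 genes were weak, as were most peaks of these lists. Over the 9 genes the fold over background, as the authors' peak caller gave it, ran from 1.00 to 1.62. The highest -log10 q there was 0.829, in a peak over Ly6d. In the Kdm6b lists the median fold at the 9 genes was 1.19, against list medians of 1.12 to 1.15 over all peaks. The B6CBAF1/J lists had medians of 1.09 over all peaks. A -log10 q of at least 2 was reached by 0.0501% to 0.830% of all peaks in the Kdm6b lists. For the B6CBAF1/J lists this share was 0.586% to 1.11%. Of 8 fibroblast marker genes 7 were at 0 in all 12 lists of the Kdm6b set. Mean coverage of 8 leukocyte marker genes was 46.8% to 55.3% in control lists and 48.6% to 55.1% in cKO lists. For 6 endothelial genes it was 14.8% to 23.5% and 19.1% to 29.2%, for 5 epithelial genes 84.0% to 92.8% and 88.4% to 94.8%, and 1 of 5 endothelial and 1 of 4 epithelial genes tested rose (limma, Benjamini-Hochberg adjusted p under 0.05), against 8.67% of all genes tested. For 5 smooth muscle genes it was 14.4% to 23.1% and 11.7% to 23.3%, and for 4 trophoblast genes 25% in every control list and 25% to 29.5% in cKO lists. The part of other cell types in the values below was not tested, and these lists do not check the deletion of Kdm6b. A peak present in some cells and a weak peak in all cells cannot be told apart in these lists.

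The promoters show how closely several of these genes resemble each other, and how poor in CG the chromosome 15 copies are. RefSeq (GRCm38.p6, the mm10 build) gave a promoter for 5 of the 9 genes, Ly6f, Ly6c1, Ly6c2, Ly6g6c and Ly6g6d. The first 4 are printed, and Ly6g6d is given by its counts. The stretches below are the bases upstream of each gene span, 5′ to 3′ on the strand of the gene, with CG pairs and TATAAA in capitals. Ly6g, a neutrophil marker from the same cluster, is set beside Ly6f because it is the nearest copy by sequence of those compared.
Ly6f promoter, chr15:75268171-75268371, plus strand: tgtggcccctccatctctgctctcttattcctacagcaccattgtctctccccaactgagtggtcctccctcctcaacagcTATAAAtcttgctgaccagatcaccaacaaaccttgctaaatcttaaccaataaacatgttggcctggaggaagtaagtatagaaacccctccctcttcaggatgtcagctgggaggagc
Ly6g promoter, chr15:75155011-75155260, plus strand: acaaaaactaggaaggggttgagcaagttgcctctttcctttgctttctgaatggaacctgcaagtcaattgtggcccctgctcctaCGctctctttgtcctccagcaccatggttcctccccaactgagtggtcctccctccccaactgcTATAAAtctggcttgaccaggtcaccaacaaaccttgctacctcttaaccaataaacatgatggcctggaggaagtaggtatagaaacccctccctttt
Ly6c1 promoter, chr15:75048921-75049087, minus strand: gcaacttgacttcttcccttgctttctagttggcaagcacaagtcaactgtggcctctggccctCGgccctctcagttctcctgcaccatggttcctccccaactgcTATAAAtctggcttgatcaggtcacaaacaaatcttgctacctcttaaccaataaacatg
Ly6c2 promoter, chr15:75112067-75112221, minus strand: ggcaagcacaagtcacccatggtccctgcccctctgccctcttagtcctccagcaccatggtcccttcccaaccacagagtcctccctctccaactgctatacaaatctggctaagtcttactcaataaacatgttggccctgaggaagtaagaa
Ly6g6c promoter, chr17:35067075-35067324, plus strand: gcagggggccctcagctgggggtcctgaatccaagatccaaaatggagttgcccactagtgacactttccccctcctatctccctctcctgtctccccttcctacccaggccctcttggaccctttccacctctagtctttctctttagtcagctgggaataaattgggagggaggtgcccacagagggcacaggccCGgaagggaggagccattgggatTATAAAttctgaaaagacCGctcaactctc

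In the full promoter windows, which reach from 250 bases before the start to 50 after it, Ly6f and Ly6c2 held 0 CG pairs, Ly6c1 and Ly6g 1 each, Ly6g6c 2 and Ly6g6d 5. The median over all 32851 RefSeq windows of this length was 7, and 5.43% of them held none. The letters TATAAA, searched on both strands, were found in the windows of Ly6f, Ly6c1, Ly6g6c and Ly6g, not in those of Ly6c2 and Ly6g6d, and in 13.6% of all windows. The letters TTCNNNGAA, the core of STAT factor sites, were found on neither strand in the windows of these 5 described genes, against 8.30% of all windows. The windows of Ly6f and Ly6g were identical at 201 of 230 aligned positions (87.4%), and those of Ly6f and Ly6c1 at 182 of 210 (86.7%). Ly6c2 and its neighbour Ly6a2 were identical at 291 of 300 positions (97.0%). The sources used here do not say how reads matching several such copies were placed, so the values of Ly6c1, Ly6c2, Ly6f and Ly6g may share reads.

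Ly6f carried less H3K27me3 in the cKO list of every pair. It lies at chr15:75268372-75272237 in a stretch with several related genes. Coverage was 38.6% in control and 21.2% in cKO at GD5.5 IIS, 77.1% and 10.9% at GD8.5 IIS, and 92.4% and 5.09% at GD14.5 IIS. At implantation sites it was 69.8% and 48.7% at GD14.5, 93.6% and 0.928% at GD18.5, and 43.8% and 28.8% in the Pdgfra-Cre pair. The cKO list was the lower one in 6 of 6 pairs, though the highest cKO value lay above the lowest control value. The mean was 69.2% ± 23.6 in control and 19.3% ± 17.7 in cKO (SD, n = 6 lists each), a difference of -49.95 ± 36.3. Of all genes, 4.88% were lower in cKO in all 6 pairs. Shares of all genes, here and below, include genes without coverage, which cannot differ.

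The peaks behind these values were fewer and shorter in cKO. In control lists 19 peaks touched the Ly6f window, the widest 15397 bp (chr15:75257155-75272551, GD14.5 IIS), with a fold of 1.05 to 1.31. In cKO lists 13 peaks did so, the widest 2057 bp, with a fold of 1.01 to 1.32, so the tallest peak was in a cKO list. At GD18.5 IS the control list held a peak of 12025 bp over most of the gene (chr15:75268746-75280770), and in cKO the single peak of the window began after the gene (chr15:75274165-75276221). The Ly6f promoter printed above lay at least partly inside a peak in 4 of 6 control lists and 1 of 6 cKO lists. Brought to equal covered length, the mean Ly6f difference was -40.0, lower in 5 pairs and higher in 1.

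**Figure D1:**
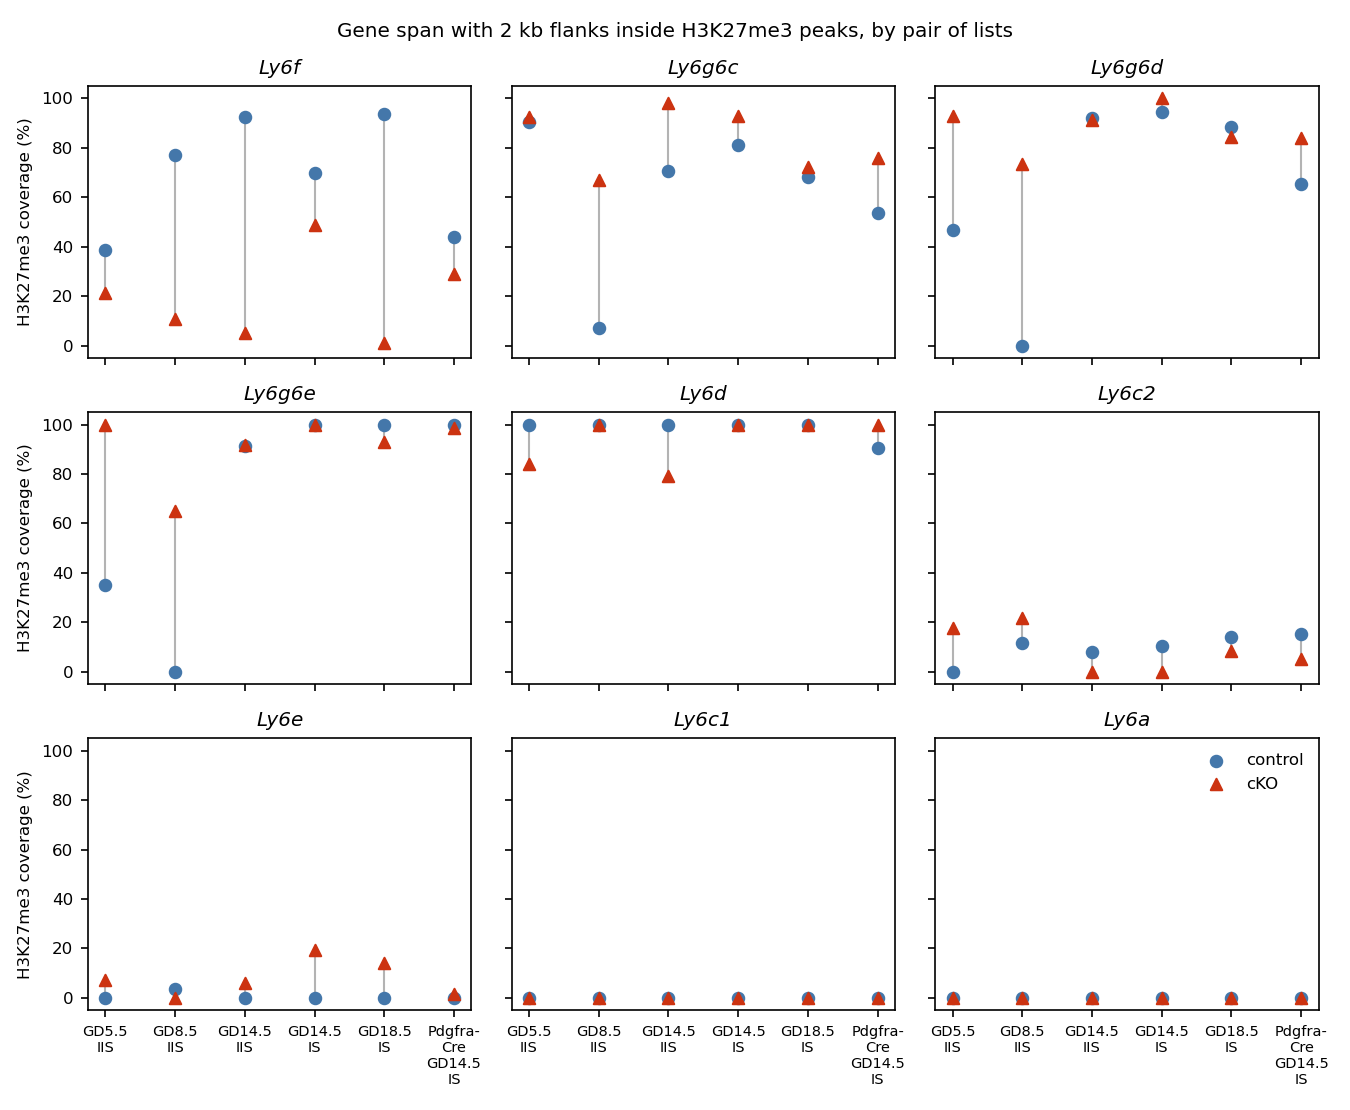
H3K27me3 coverage (percent of gene span with 2 kb flanks inside peaks, vertical axis) of the 9 genes in the 6 pairs of lists (horizontal axis). Circles are control lists, triangles cKO lists, 1 pooled list each, and grey lines join a pair. Ly6f is lower in cKO in all 6 pairs, Ly6g6c is higher in all 6, and Ly6a and Ly6c1 stay at 0.

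Ly6g6c, Ly6g6d and Ly6g6e lie side by side in the class III region of the major histocompatibility complex on chromosome 17, and all had a higher mean in cKO. The Ly6g6e span (chr17:35076868-35078804) lies inside that of Ly6g6d (chr17:35071342-35081239), so these values share peaks. With the 2 kb flanks Ly6g6c and Ly6g6d overlap too, and some peaks reach both, such as chr17:35067602-35084605 in Pgr-Cre cKO at GD14.5 IS. The values of Ly6g6c, Ly6g6d and Ly6g6e are therefore not independent of each other. Ly6g6d also overlaps Ly6g6f at its far end.

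Ly6g6c (chr17:35067325-35070048) was higher in cKO in 6 of 6 pairs. Coverage was 90.6% in control and 92.5% in cKO at GD5.5 IIS, 6.99% and 66.9% at GD8.5 IIS, and 70.7% and 98.1% at GD14.5 IIS. At implantation sites it was 81.2% and 93.0% at GD14.5, 68.4% and 72.3% at GD18.5, and 53.5% and 75.7% in the Pdgfra-Cre pair. The control list of GD8.5 IIS stood far below the rest, while differences at GD5.5 and GD18.5 were small. The means were 61.9% ± 29.7 and 83.1% ± 13.0 (SD, n = 6 lists each), a difference of 21.2 ± 21.4. Without the GD8.5 pair it was 13.4, and at equal covered length 40.6, again higher in 6 pairs. Of all genes, 6.46% were higher in cKO in all 6 pairs.

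Ly6g6d differed most in the early pairs. Its coverage went from 46.8% to 93.0% at GD5.5 IIS and from 0% to 73.6% at GD8.5 IIS, and from 92.1% to 91.2% at GD14.5 IIS. At implantation sites it went from 94.4% to 100% at GD14.5, from 88.3% to 84.4% at GD18.5, and from 65.4% to 83.8% in the Pdgfra-Cre pair. The cKO list was the higher one in 4 pairs and the lower one in 2, and values of the groups overlapped. The mean difference was 23.2 ± 30.7, or 13.1 without the GD8.5 pair.

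Ly6g6e was nearly filled by peaks from GD14.5 onward in both genotypes, with 91.1% to 100% in the 4 control lists and 91.8% to 100% in the 4 cKO lists. Earlier it went from 35.1% in control to 100% in cKO at GD5.5 IIS and from 0% to 64.8% at GD8.5 IIS. The mean difference of 20.3 ± 34.6 came from these 2 early pairs. It was 11.4 without either one.

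Peaks over the chromosome 17 genes were somewhat taller in cKO lists. The highest fold was 1.40 in the Ly6g6c window and 1.62 over Ly6g6d and Ly6g6e in cKO lists, against 1.31 and 1.33 in control lists. The peaks of 1.40 and 1.31 began after the Ly6g6c span and reached only its flank. Among peaks that touched this span the highest fold was 1.35 in cKO lists and 1.24 in control lists. In the control list of GD8.5 IIS the Ly6g6c window held a single peak of 512 bp (chr17:35065283-35065794), which lay before the gene. The widest peak of the stretch had 17004 bp, in a cKO list. The promoter of Ly6g6c lay at least partly in a peak in 5 of 6 control and 6 of 6 cKO lists.

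**Figure D2:**
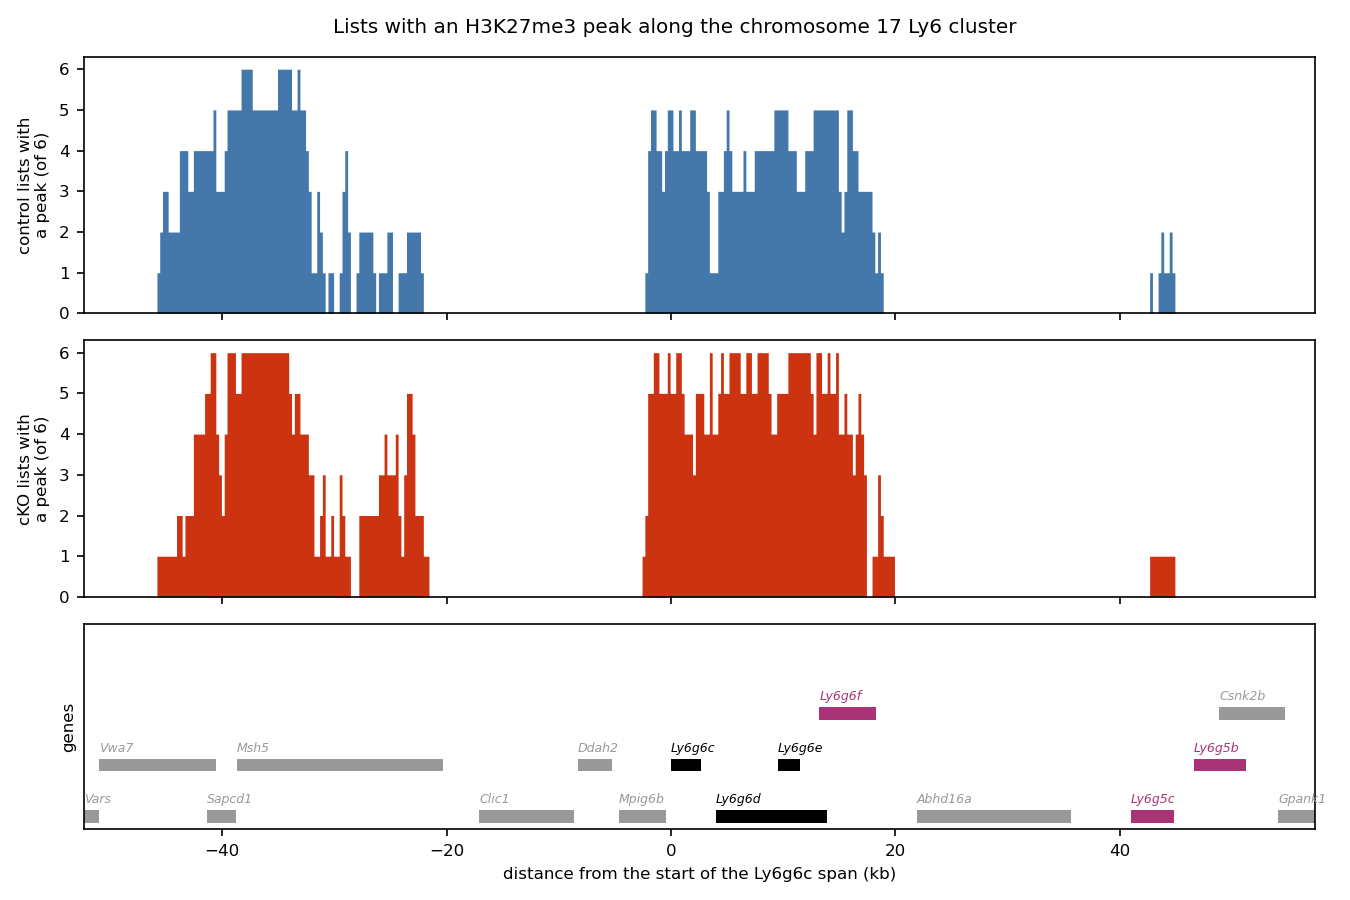
Number of control lists (upper panel) and cKO lists (middle panel), of 6 each, with a peak at positions every 250 bases along the chromosome 17 cluster, by distance in kb from the start of the Ly6g6c span. The lower panel shows gene spans, the described genes in black, other Ly6 family genes in purple and other genes in grey. The block over Ly6g6c, Ly6g6d and Ly6g6e reaches 5 control lists at most and 6 cKO lists in places, with empty stretches on both sides.

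Ly6d was covered to at least 79.2% in every list. This gene (chr15:74762056-74763567), a marker of lymphoid progenitors on the way to B cells, had 100% in 5 control lists and 90.5% in the Pdgfra-Cre control. In cKO lists it had 100% in 4, 84.0% at GD5.5 IIS and 79.2% at GD14.5 IIS. The mean difference was -4.55 ± 11.5, with 1 pair higher, 2 lower and 3 equal. A control list at 100% left no room for a rise. The peak over Ly6d had 9693 to 24361 bp in control lists and reached the highest fold, 1.56, in the Pdgfra-Cre control.

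Ly6a, Ly6c1, Ly6c2 and Ly6e had little or no H3K27me3 in peaks. Ly6a (chr15:74994877-74998031) encodes Sca-1, a surface marker of progenitor and stromal cells, and lay outside peaks in all 16 lists. Ly6c1 (chr15:75044018-75048920), a marker of endothelial cells and monocytes, was at 0 in all 12 lists of the Kdm6b set. In B6CBAF1/J fibroblasts at GD0.5 it had 10.9% from weak peaks. No peak touched the promoter window of Ly6c1 in any list.

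Ly6c2 (chr15:75108161-75112066), a monocyte marker, went from 0% to 17.9% at GD5.5 IIS and from 11.7% to 21.8% at GD8.5 IIS. In the other 4 pairs it was lower in cKO: 8.13% against 0% at GD14.5 IIS, 10.4% against 0% at GD14.5 IS, 14.0% against 8.47% at GD18.5 IS and 15.1% against 5.06% in the Pdgfra-Cre pair. The mean difference of -1.04 lay well inside the range of the pairs, -10.4 to 17.9. Its sign turned when the GD14.5 IIS, GD14.5 IS or Pdgfra-Cre pair was left out.

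Ly6e (chr15:74955025-74959904), which encodes a receptor for syncytin A in the placenta and a restriction factor for some viruses, was at 0% in 5 control lists and 3.75% in that of GD8.5 IIS. In cKO lists it was 7.29% at GD5.5, 0% at GD8.5 and 5.92% at GD14.5 in IIS. At implantation sites it was 19.3% at GD14.5, 14.0% at GD18.5 and 1.61% in the Pdgfra-Cre pair. The cKO list was higher in 5 pairs and lower in 1, by 7.39 ± 8.30 on average. The 8 peaks behind these values lay in the flank before the gene, and 1 of them, in Pgr-Cre cKO at GD14.5 IS, reached into the span (chr15:74954176-74955443). At equal covered length the mean difference was 1.15.

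**Figure D3:**
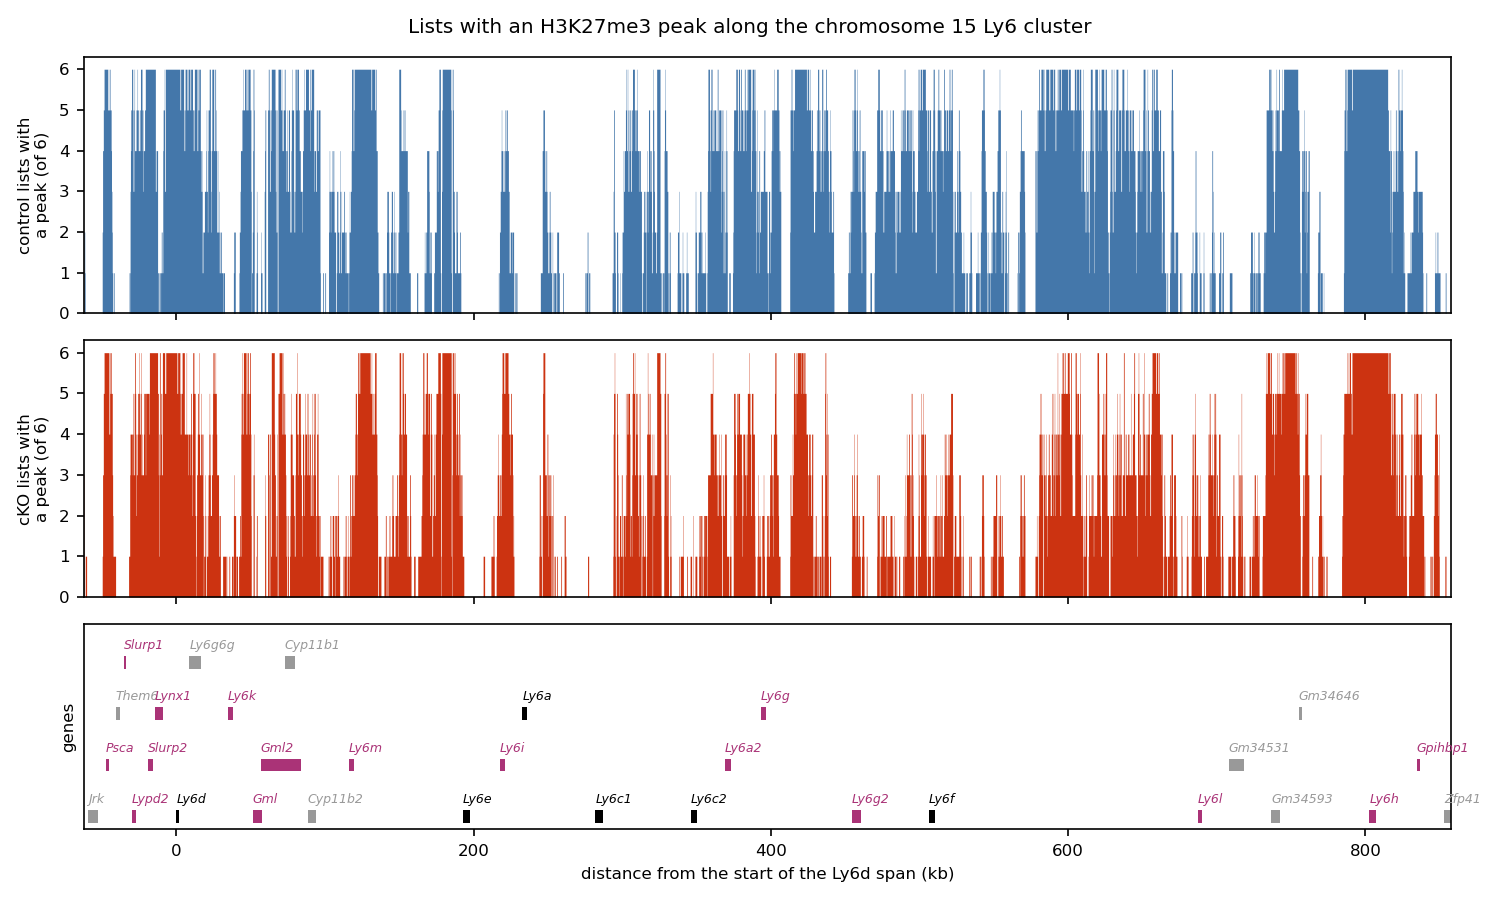
Number of control lists (upper panel) and cKO lists (middle panel), of 6 each, with a peak at positions every 250 bases along the chromosome 15 cluster, by distance in kb from the start of the Ly6d span. The lower panel shows gene spans, the described genes in black, other Ly6 family genes in purple and other genes in grey. Ly6d lies in a block shared by 6 lists of both groups, Ly6a and Ly6c1 lie in gaps, and the block over Ly6f is present in fewer cKO lists.

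Counted over the 9 genes, 4 had a higher mean in cKO, 3 a lower one and 2 lay at 0 in all 12 lists. Of all 21627 genes, 7664 had a higher mean in cKO and 6648 a lower one. In none did the control and cKO values separate without overlap, against 3.66% of all genes. The mean over the 9 genes differed by 1.84 ± 10.5 points (SD, 6 pairs), higher in 4 pairs and lower in 2. The median over the 9 was 0, as it was over all 21627 genes. Both medians fall on genes without any difference, so their match says nothing about the 9. Over the 9843 genes tested the median was 0.125. Of the 9 genes 6 had a mean coverage of at least 5%. Among all 21627 genes, 9843 reached this mean with values that were not all equal.

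A change of at least 50 points was found in 7 of 54 combinations of gene and pair. Of these, 4 were gains, 3 at GD8.5 IIS (Ly6g6c, Ly6g6d and Ly6g6e) and 1 at GD5.5 IIS (Ly6g6e). The 3 at GD8.5 IIS share a peak and the same control list, so they are not separate gains. The 3 losses were all of Ly6f, at GD8.5 IIS, GD14.5 IIS and GD18.5 IS. The losses were in the same pairs at equal covered length, but the 5 gains were partly others. They were Ly6g6d (74.1) and Ly6g6e (79.2) at GD5.5 IIS, and Ly6g6c at GD8.5 IIS (61.0), GD14.5 IIS (52.2) and GD14.5 IS (55.1). Ly6g6d and Ly6g6e then differed by 39.1 and 18.4 at GD8.5 IIS. Over all genes 0.151% of combinations were gains and 0.632% losses. At GD8.5 IIS, where 3 of the genes gained and 1 lost, 0.171% of all genes gained and 0.633% lost. At GD5.5 IIS the shares over all genes were 0.0879% gained and 0.236% lost, at GD14.5 IIS 0.106% and 1.09%, and at GD18.5 IS 0.0925% and 0.726%. At GD14.5 IS, where none of the 9 changed by as much in the lists as deposited, they were 0.222% and 0.962% in the Pgr-Cre pair and 0.227% and 0.143% in the Pdgfra-Cre pair.

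Between stages or sites of the same genotype, each change of this size in the lists as deposited involved the control list of GD8.5 IIS. At equal covered length other lists showed such changes too. Ly6g6c went from 90.6% at GD5.5 IIS to 6.99% at GD8.5 IIS, where 0.0786% of all genes lost as much and 0.194% gained. From GD8.5 to GD14.5 IIS, Ly6g6c, Ly6g6d and Ly6g6e gained 63.7, 92.1 and 91.1 points, against 0.268% of all genes that gained and 0.0416% that lost. In controls none of the 9 changed by 50 points from GD14.5 to GD18.5 IS, where 0.153% of all genes gained and 0.0462% lost, or between IIS and IS at GD14.5, where 0.0324% were gained in IS and 0.203% lost. Among cKO lists as deposited none of the 9 changed by 50 points between stages or sites. Ly6f came nearest there, with 48.7% at GD14.5 IS and 0.928% at GD18.5 IS. Over all genes, 0.0601% gained and 0.0832% lost between cKO lists from GD5.5 to GD8.5 IIS, and 0.106% and 0.0879% from GD8.5 to GD14.5 IIS. From GD14.5 to GD18.5 IS 0.139% gained and 0.102% lost, and from IIS to IS at GD14.5 0.102% and 0.0786%. When lists were brought to equal covered length, Ly6g6d and Ly6g6e changed between cKO lists by -53.9 and -81.6 points from GD5.5 to GD8.5 IIS and by 52.1 and 73.5 from GD8.5 to GD14.5 IIS. In controls Ly6f then changed by 88.0 from GD14.5 to GD18.5 IS and by -72.9 from IIS to IS at GD14.5, and the 63.7-point gain of Ly6g6c became 45.9. The control changes of Ly6g6c from GD5.5 to GD8.5 IIS (-80.4) and of Ly6g6d (65.9) and Ly6g6e (61.1) from GD8.5 to GD14.5 IIS stayed past 50 points. With 1 list per side these differences have no replicate check.

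In the B6CBAF1/J set, Ly6f and the chromosome 17 genes varied between lists and Ly6d did not. Ly6f had 41.3% at GD0.5, 90.8% at GD5.5 IIS, 55.3% after vasectomized mating and 33.7% after progesterone. Ly6g6c had 7.69%, 73.3%, 15.4% and 51.5% in the same order, and in the comparisons of each list with GD0.5 its 65.6-point difference at GD5.5 IIS was the only one of at least 50 points. Of all genes 0.305% gained as much in that comparison and 0.24% lost. Against GD0.5, 0.273% gained and 0.273% lost after vasectomized mating, and 0.402% and 0.661% after progesterone. This Ly6g6c difference was 0 at equal covered length, and that of Ly6f turned from 49.5 to -38.8.

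Ly6g6d had 25.6% at GD0.5, 48.3% at GD5.5 IIS, 19.4% after vasectomized mating and 14.3% after progesterone. Ly6g6e had 57.8%, 58.0%, 20.8% and 12.4% in that order. Ly6c2 reached 46.5% at GD5.5 IIS and lay between 14.6% and 31.4% in the other lists. Ly6d was at 100% and Ly6e and Ly6a at 0 in all 4. As deposited, the GD5.5 IIS list was the highest of the 4 for Ly6f, Ly6g6c, Ly6g6d, Ly6g6e and Ly6c2, with Ly6g6e nearly level between GD5.5 IIS and GD0.5. At equal covered length this held for Ly6c2 alone, with 24.99% there. In that setting Ly6f was at 38.8% at GD0.5 and at 0% at GD5.5 IIS. Ly6g6c and Ly6g6d had 5.95% and 2.88% after vasectomized mating and 0% in the other lists, and Ly6g6e had 0% in all 4.

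**Figure D4:**
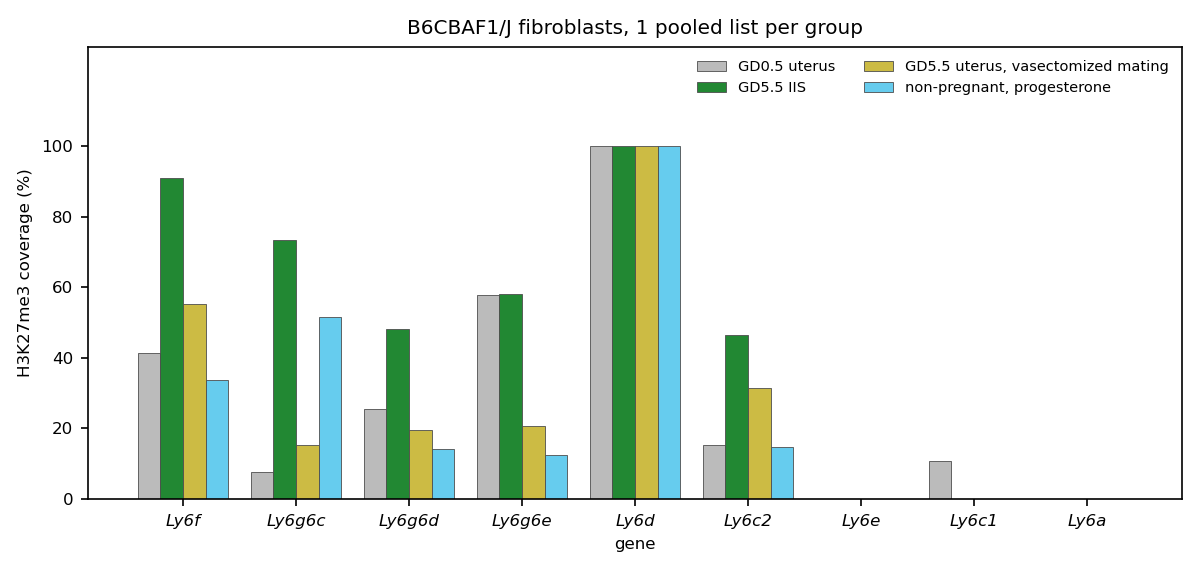
H3K27me3 coverage (percent, vertical axis) of the 9 genes in the 4 B6CBAF1/J lists, 1 pooled list per bar, so no error bar can be given. Ly6d stands at 100% in all 4 lists, and Ly6f and Ly6g6c are highest at GD5.5 IIS in the lists as deposited, though not at equal covered length.

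The other genes on a list of the Ly6 and uPAR family were tested in a fit over all genes. Of 48 such genes 33 could be tested, and 2 rose and 2 fell across the 6 pairs (limma, Benjamini-Hochberg adjusted p under 0.05). The shares over all 9843 genes tested were 8.67% risen and 8.44% fallen. On chromosome 15, 14 of 16 could be tested, with 1 risen and 2 fallen. On chromosome 17 only Ly6g6f could be tested, with 50.8% in control and 59.8% in cKO (limma adjusted p = 0.555).

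Lynx1, which encodes a modulator of nicotinic acetylcholine receptors and sits next to Ly6d, rose. Control lists had 37.8% to 79.6% and cKO lists 76.4% to 95.2%, and only the control list of GD5.5 IIS lay above the lowest cKO list. Lynx1 (chr15:74747856-74752979) was higher in 6 of 6 pairs, by 31.9 ± 10.7 points (limma adjusted p = 0.00559). In every alternative fit that tested it, Lynx1 passed. The peak over Ly6d began inside Lynx1 in 2 of the 6 control lists and 5 of the 6 cKO lists.

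Ly6g2 and Ly6g lie between Ly6c2 and Ly6f, and both fell in cKO. Ly6g2 (chr15:75216351-75222661) had 32.8% to 80.8% in control and 0% to 36.1% in cKO, lower in 6 of 6 pairs by a mean difference of -38.4 ± 17.8 (limma adjusted p = 0.0128). Ly6g (chr15:75155261-75159128) had 17.6% to 65.5% in control and 0% to 42.5% in cKO, again lower in 6 of 6, by -25.9 ± 19.2 (limma adjusted p = 0.0454). The full promoter window of Ly6g was touched by a peak in 4 of 6 control and 1 of 6 cKO lists, the same counts as for Ly6f. Mean coverage of this window was 58.4% in control and 1.33% in cKO lists for Ly6g. For Ly6f it was 54.1% and 16.7%. At equal covered length neither passed, with -36.8 (limma adjusted p = 0.0915) for Ly6g2 and -17.3 (limma adjusted p = 0.330) for Ly6g. Ly6g also did not pass when any of the 5 Pgr-Cre pairs was left out, without the filter on low coverage (limma adjusted p = 0.0812) or in an unpaired fit (0.0713).

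Lypd6b on chromosome 2, a family gene outside the clusters, rose from 63.5% to 69.2% in 6 of 6 pairs (limma adjusted p = 0.0440). At equal covered length its difference was -1.09 (limma adjusted p = 0.708), and it passed in no fit that left out a pair. Ly6m differed by -24.5 ± 19.4 and was lower in 5 of 6 pairs (limma adjusted p = 0.0544), which did not pass. With 5 kb flanks (limma adjusted p = 0.0117), with the median subtracted (0.0491) and without the Pgr-Cre GD14.5 IS pair (0.0241) Ly6m passed. In the other alternative fits it did not. Ly6h was at 100% in all 12 lists and gave no difference to test.

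Genes not on the family list that lie within 100 kb of a described gene were measured in the same way. Of 25 such genes 9 could be tested, none rose and 2 fell, both on chromosome 15, against 8.67% risen and 8.44% fallen of all genes tested. One of them, Ly6g6g, is by its name a Ly6 gene that the family list lacks, as it lacks Lypd9, Lypd10 and Lypd11. Counted with the family, it makes 3 fallen of 34 tested family genes and leaves 1 fallen of 8 tested neighbours. Cyp11b2, the aldosterone synthase gene, had 65.4% to 100% in control and 36.3% to 71.8% in cKO, lower in 6 of 6 pairs by a difference of -28.4 ± 16.2 (limma adjusted p = 0.0224). Ly6g6g, close to Ly6d, had 66.6% to 96.0% in control and 51.8% to 75.4% in cKO, lower in 6 of 6 by -20.3 ± 13.6 (limma adjusted p = 0.0364). Cyp11b2 did not pass in 4 of the 6 fits without 1 pair, and Ly6g6g in 5 of 6, nor did Ly6g6g without the filter on low coverage (limma adjusted p = 0.0647). At equal covered length both passed, with -62.0 and -48.9.

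Cyp11b1, a paralogue of Cyp11b2 in steroid synthesis, differed by -19.4 ± 23.0 (limma adjusted p = 0.153), and Aif1, a macrophage gene near the chromosome 17 cluster, by 11.8 ± 18.7 (limma adjusted p = 0.277). Neither passed. Around Ly6g6c, Ly6g6d and Ly6g6e, 14 of 19 neighbouring genes lay at 0 in all 12 lists, among them Ddah2 and Clic1 on one side and Abhd16a on the other. Mpig6b, the nearest neighbour at 0.477 kb from Ly6g6c, was not at 0. It had 32.1% in control and 41.7% in cKO (limma adjusted p = 0.211). Part of the Mpig6b span lies in the Ly6g6c flank, so both genes share peaks.

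**Figure D5:**
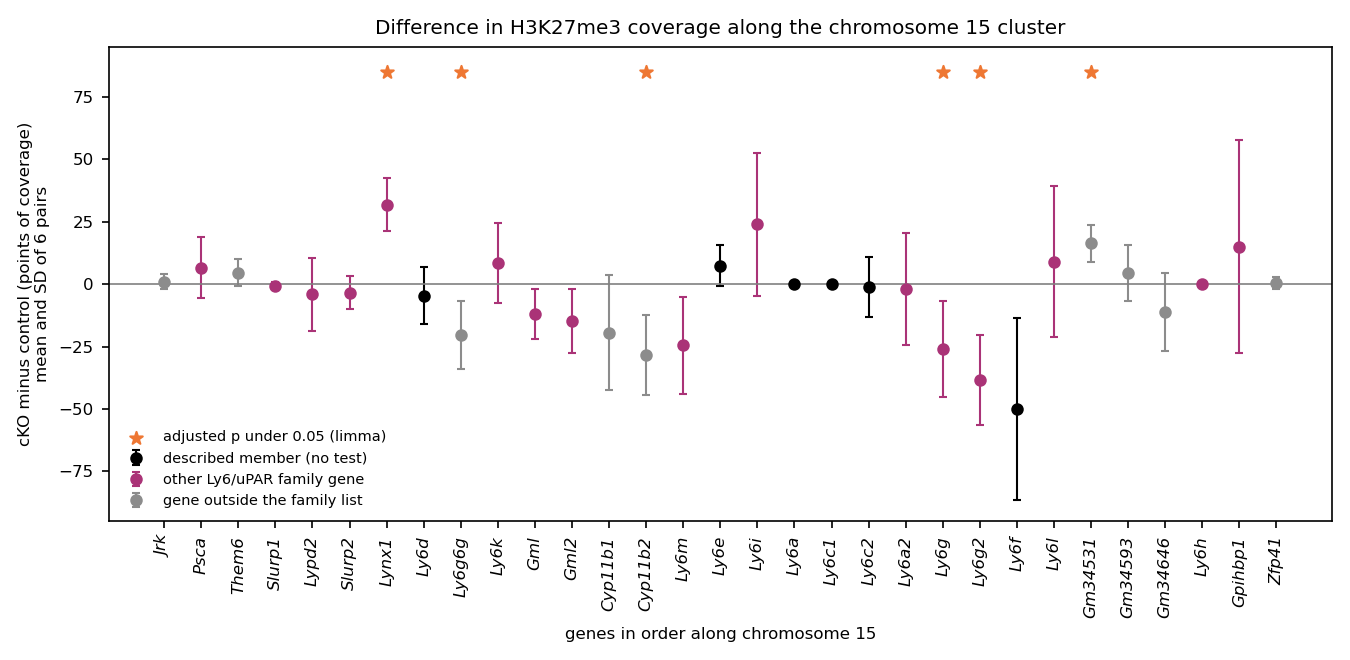
Difference in coverage (points, cKO minus control, mean with SD of 6 pairs as error bars) of genes in their order along chromosome 15. The described genes are black, other family genes purple and other genes, Ly6g6g included, grey, and stars mark limma adjusted p under 0.05 among genes tested and not described as members of the list. Lynx1 rises by 31.9 points next to Ly6d, which differs by -4.55. Ly6g, Ly6g2 and Ly6f lie below 0 side by side. Gm34531, further than 100 kb from the described genes, also bears a star.

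Genes elsewhere whose coverage ran most like that of these genes were named from 9764 genes more than 1 Mb away, over the 12 lists of the Kdm6b set. The lists share their method of peak calling and differ in genotype and stage, so these correlations are a description. For the mean of the chromosome 15 genes, which moves mainly with Ly6f, they were Nlrp12, a regulator of innate immunity (Pearson r = 0.934), Vmn1r15, a vomeronasal receptor (0.911), and Sftpd, surfactant protein D (0.910). For the chromosome 17 genes they were Lhx6, a homeobox factor (0.945), BC048679 (0.943) and Cyp17a1, a steroid hydroxylase (0.938). Lhx6 had 98.7% in control and 100% in cKO lists, so its likeness rests on a few lists that fell short of full coverage. The same holds for BC048679 (92.0% and 99.0%) and Cyp17a1 (96.8% and 99.1%). Each of these genes was at 100% in all Kdm6b lists from GD14.5 onward. For Vmn1r15 the value was 0.255 at equal covered length and 0.107 over the span alone.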

How the data were processed

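The 9 genes, the other lists and the tests were chosen with earlier results of these data known. Per the labels, the authors used STAR 2.7.5c, samtools 1.10, bedtools 2.29.1 and bedGraphToBigWig 2.8 for signal tracks and called peaks with macs2 2.2.7.1; the submitters' processing notes add Picard and mm10. In each deposited list the authors give per peak a fold over background (a ratio), -log10 p and -log10 q. Read depth and any control used in peak calling are not given in the sources used here. Of 80 samples, 32, 20 of them inputs, are in no list and are not analysed here.

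Coverage was computed per gene from peak positions and RefSeq gene spans (GRCm38.p6). limma 3.58.1 (R 4.3.3) was fitted to 6 paired differences, with Benjamini-Hochberg adjustment. Genes entered the fit with a mean of at least 5% and values that were not all equal. The procedure was tested on simulated data, made from the recentred differences of each gene with known shifts added to some genes. Such data cannot check dependence between pairs or the bounds of coverage, and the outcome is not given here. That the 6 pairs are independent is assumed: labels do not say whether GD14.5 IIS and IS came from the same females. At GD14.5 IS the names of the peaks in the Pgr-Cre pair may come from another calling round. Whether these peaks were called differently is not known. Alternatives were equal covered length (strongest peaks up to 80% of the shortest list), -log10 q of at least 2, 5 kb flanks, the span alone, 25 points, fold-weighted coverage, no filter, an unpaired fit, median subtraction and leaving out each pair. Correlations under other settings and the count with Ly6g6g in the family were added after seeing the data. Named were the 9 genes, family genes that passed or were among the 4 largest differences, the 4 largest neighbours and the 3 most alike genes per cluster. Gm34531, Ly6g6f, Ly6a2, Gml2, Acrv1, Mpig6b, Lypd9, Lypd10, Lypd11 and genes named only as at 0 or 100% were chosen after their values were seen. Promoters were aligned with biopython 1.88 and plots used matplotlib 3.10.9, in python 3.11.15 with numpy 2.4.6 and pandas 2.3.3.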

Additional observations from a re-analysis of the deposited data

Results flagged for a closer look

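Among 36 sets of 6 values examined for a value far from the others, 3 had one. Chance gives about 1 in 20 for values that can vary freely, which does not apply to Ly6d and Ly6e below, where the other 5 values are tied at a bound. Ly6g6e in the Pgr-Cre cKO list of GD8.5 IIS had 64.8%, against 91.8% to 100% in the other 5 cKO lists. Ly6d in the control list of the Pdgfra-Cre pair had 90.5%, against 100% in the other 5 control lists. Ly6e in the control list of GD8.5 IIS had 3.75%, against 0% in the other 5.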

How the results depend on the processing

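The mean difference over the 9 genes was 4.41 at equal covered length, 1.499 with 5 kb flanks, -0.408 over the span alone, 4.33 weighted by fold and -0.874 to 4.24 without 1 pair. The signs of Ly6f, Ly6g6c, Ly6g6d, Ly6g6e, Ly6d and Ly6e were the same in all 10 alternatives other than -log10 q of at least 2. With -log10 q of at least 2 the 9 genes had no coverage, so gains, losses and single comparisons of 50 points came to 0, as did risen and fallen family genes and risen genes among all, while 5 of all genes fell. Single comparisons otherwise gave 10 to 18 such changes against 12. Gains numbered 1 to 4 without 1 pair (1 without GD8.5 IIS) and losses 2 to 3.

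Of the other family genes, at equal covered length 1 rose (Lynx1) and 2 fell, not those named above but Gml2 (-31.6) and Acrv1 (-34.9). With 5 kb flanks 4 rose and 6 fell, over the span alone 1 rose, with no filter 1 fell and with the median subtracted 4 fell. Without 1 pair 1 rose and 1 to 4 fell. Lypd6b turned to -1.09 at equal covered length. Among all genes 282 rose and 429 fell at equal covered length, 515 fell over the span alone and 545 without the filter, against 853 and 831. Without 1 pair 459 to 577 rose and 324 to 788 fell. The cause was not tested, except that fits without 1 pair hold fewer lists. Each list pools its samples, so spread between animals could not be measured. Unknown read depth and weak peaks limit all values.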
